A study of Rattus norvegicus with 6 samples.

Results

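Oxidative phosphorylation is carried out by 5 protein complexes of the inner mitochondrial membrane, and the transcripts of their subunits were examined in neonatal rat cardiac fibroblasts (NRCFs). Members were chosen by gene symbol. A symbol was taken where it begins with Ndufa, Ndufb, Ndufc, Ndufs or Ndufv and a digit, where it is Sdha, Sdhb, Sdhc or Sdhd, or where it begins with Uqcr, Cox and a digit from 4 to 8, Atp5 or Mt-. Of the 21857 symbols listed, 99 matched, and 92 of them had at least 10 counts in at least 3 libraries. These 92 genes were 79 nuclear genes and all 13 protein-coding genes of mitochondrial DNA. They comprised 41 members of complex I, 4 of complex II, 9 of complex III, 20 of complex IV and 18 of complex V.

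The respiratory chain passes electrons from NADH (complex I) or succinate (complex II) through complex III to oxygen at complex IV. The proton gradient built on the way drives ATP synthesis by complex V. Complexes I, III, IV and V are mosaics, with a few hydrophobic core subunits encoded in mitochondrial DNA and the remainder encoded in the nucleus, translated in the cytosol and imported, whereas complex II is wholly nuclear. Heart is rich in these complexes, and some subunits exist as paralogs used in muscle, lung, testis or low oxygen.

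The study asked what the RNA demethylase FTO does in cardiac fibroblasts. FTO is an enzyme that removes the N6-methyladenosine mark from RNA. Primary fibroblasts were grown from hearts of newborn Sprague-Dawley rats, at most 3 days old, and were transfected with a plasmid that carried rat FTO, or with the empty plasmid. Both groups were cultured primary cells and carried a plasmid, so the empty plasmid (Vector, genotype label WT) is the control. The labels give the strain of all samples as Noway. There were 3 Vector libraries and 3 libraries labelled FTO overexpression, with 13178952 to 17857999 counts each. Neither the labels nor the study's methods say whether replicates came from separate cultures, so p-values measure only the spread between these libraries. Replicate libraries differed by more than sampling noise, and none was counted as a repeat of another.

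The targeted gene was checked first. Fto was at 87.8, 89.6 and 87.4 CPM (counts divided by library size and brought to a common scale by TMM, a trimmed mean of log ratios) in Vector and at 93.2, 90.8 and 92.9 CPM in the libraries labelled FTO. The groups did not overlap, but the fold of 1.05 (95% interval 0.976 to 1.12) did not pass the test (log2 fold change 0.06, SE 0.0468, edgeR adjusted p = 0.239). In these libraries the level of the targeted transcript thus did not bear out the label, and the treated group is referred to by its label only. The paper itself checked the FTO plasmid by qRT-PCR and at the protein level, and it reported less N6-methyladenosine by dot blot. Over all 12941 genes tested the median log2 fold change was 0.00107, while 65.9% of genes passed an adjusted p of 0.05, 33.2% as higher and 32.8% as lower in the libraries labelled FTO. Counts of members are read against these shares.

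Cell type markers also differed between the groups. All 11 macrophage markers passed the test, 10 of them lower and Adgre1 higher (log2 fold change 2.22), and their summed level was 1690.4 to 1754 CPM in Vector and 236 to 273 CPM in the libraries labelled FTO. The complement genes C1qb and C1qc were close to 0 in the latter, at 0.0858 and 0.109 CPM. All 12 cardiomyocyte markers passed the test, 11 of them higher, with sums of 1622 to 1651 CPM against 2523 to 2599 CPM. Tnni3 (log2 fold change 1.89) and Mybpc3 (1.52) rose most, and only the troponin gene Tnnt2 (-0.25) was lower among these 12. The 9 fibroblast markers were detected in every library, summing to 40130.1 to 40765 CPM and 19822 to 20812 CPM, with 4 higher and 5 lower. Dcn (log2 fold change 6.90) and Lum (3.15) rose most, and Col3a1 (-1.68) and Col1a1 (-1.64) fell most. Of the endothelial markers 4 were higher and 1 was lower of 6 tested, and of the mural markers 3 were higher and 3 lower of 6. Kdr (log2 fold change 2.13) and Cdh5 (1.59) were the largest endothelial increases, and Erg (-1.55) was the lower one. Among the mural markers Kcnj8 (4.89) and Des (2.45) rose most, and Notch3 (-3.91) and Myh11 (-3.53) fell most. These differences run with every comparison below, and their part in the subunit results was not tested. In RNA from whole cultures, fewer cells of a type and less RNA per cell cannot be told apart.

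The 2 genomes moved apart. Of the 79 nuclear members 57 were higher in the libraries labelled FTO, 3 were lower and 19 did not pass the test. None of the 13 mitochondrially encoded members was higher, 10 were lower and 3 did not pass. The median log2 fold change was 0.29 over the nuclear members and -0.40 over the mitochondrial ones. Over all 92 members 62.0% were higher and 14.1% lower, against the 33.2% and 32.8% of all genes. Most changes were small. The median absolute log2 fold change was 0.327 for the members and 0.363 for all genes, and only 4 members (4.35%) passed a log2 fold change of 1 with p under 0.05, against 19.6% of all genes. The groups did not overlap in CPM for 69 members (75%), close to the 70.3% of all genes.

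Summed levels showed the same split library by library. The 13 mitochondrial members summed to 50667, 48203 and 50087 CPM in Vector and to 40781, 42493 and 37926 CPM under the FTO label, a drop of 18.6%. They took 4.82% to 5.04% of all counts in Vector against 3.80% to 4.27% under the FTO label. The 79 nuclear members summed to 6859, 6898 and 6874 CPM and to 7864, 8272 and 7511 CPM, a rise of 14.6%. Every library labelled FTO was above every Vector library for the nuclear sum and below every one for the mitochondrial sum. The ratio of nuclear to mitochondrial counts was 0.139 ± 0.00403 in Vector and 0.195 ± 0.00264 in the libraries labelled FTO (SD, n = 3). Each complex followed the genome of its genes. The nuclear sum rose by 21.6% for complex I, 13.3% for complex II, 18.7% for complex III, 16.02% for complex IV and 9.29% for complex V. The mitochondrial sum fell by 27.6% for complex I, 32.9% for complex III, 12.9% for complex IV and 23.4% for complex V. None of these sums overlapped between the groups.

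**Figure D1:**
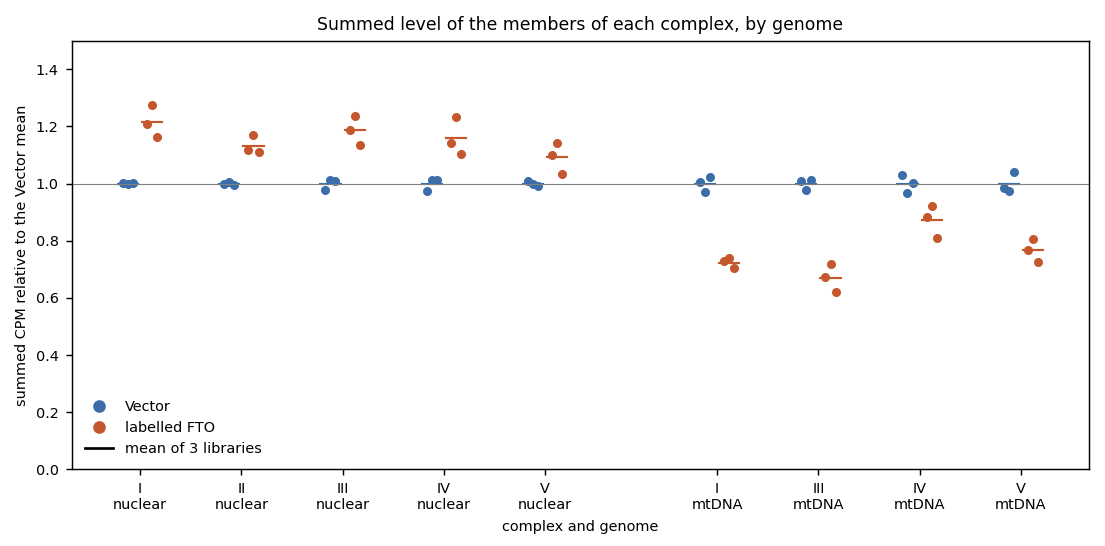
Summed CPM of the members of each complex (x axis, nuclear genes on the left and mitochondrially encoded genes on the right) as a ratio to the Vector mean (y axis), with 1 point per library and a bar at the mean of 3 libraries. All 5 nuclear sums sit higher and all 4 mitochondrial sums lower in the libraries labelled FTO than in Vector, with no overlap.

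Mitochondrial DNA encodes 7 subunits of the membrane arm of complex I, and 6 of them were lower. Values of single libraries are given in replicate order, Vector before FTO-labelled. Mt-nd5, the proton-pumping subunit at the far end of the membrane arm, was at 2556, 2487 and 2593 CPM in Vector and at 1265, 1316 and 1310.1 CPM in the libraries labelled FTO. It had the largest decrease of all 92 members, and the groups were far apart (log2 fold change -0.97, SE 0.038, edgeR adjusted p = 4.36e-12). Mt-nd4, its neighbour in the membrane arm, was at 424, 319 and 323 CPM and at 204, 230.0 and 186 CPM (log2 fold change -0.78, SE 0.0941, edgeR adjusted p = 3.01e-06). Mt-nd6 is the only protein-coding gene on the other strand of mitochondrial DNA. Its levels were 431, 454 and 488 CPM in Vector and 253, 289 and 278 CPM in the libraries labelled FTO (log2 fold change -0.75, SE 0.0551, edgeR adjusted p = 1.09e-08). Mt-nd1, which helps to form the ubiquinone site, was at 3085, 2931 and 3058 CPM and at 1948, 1999 and 1809 CPM (log2 fold change -0.66, SE 0.0436, edgeR adjusted p = 2.96e-09). For these 4 genes all libraries labelled FTO were below all Vector libraries.

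The other 3 complex I genes had smaller fitted changes. Mt-nd4l was at 194, 255 and 286 CPM in Vector and at 197, 182 and 197 CPM in the libraries labelled FTO, where 1 Vector library lay among the latter (log2 fold change -0.35, SE 0.0973, edgeR adjusted p = 0.00524). Its call was lost with DESeq2 (adjusted p = 0.0539). Mt-nd3 also overlapped, at 451, 525 and 545 CPM and 462, 445 and 423 CPM (log2 fold change -0.19, SE 0.0599, edgeR adjusted p = 0.0101). Without Vector replicate 2 or 3 its edgeR adjusted p was 0.0509 or 0.0749. Mt-nd2 was not lower, at 2633, 2470.3 and 2631 CPM and 2743, 2716 and 2643 CPM. The 3 libraries labelled FTO were just above the 3 Vector libraries, and the difference did not pass the test (log2 fold change 0.07, SE 0.0395, edgeR adjusted p = 0.149, 95% interval -0.02 to 0.15), although it did without FTO replicate 3 (log2 fold change 0.08, edgeR adjusted p = 0.0473).

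Mt-cyb, cytochrome b, is the only complex III subunit from mitochondrial DNA. It was at 5485, 5316 and 5501 CPM in Vector and at 3654, 3909 and 3376 CPM in the libraries labelled FTO, with no overlap (log2 fold change -0.58, SE 0.0483, edgeR adjusted p = 4.92e-08). The 3 mitochondrial subunits of complex IV form its catalytic core. Mt-co2, which takes electrons from cytochrome c, was at 5767, 5648 and 5807 CPM and 4352, 4487 and 4195 CPM (log2 fold change -0.40, SE 0.0385, edgeR adjusted p = 2.30e-07). Mt-cox3 was at 6958, 6546 and 6722 CPM and 5009, 5290.1 and 4753 CPM (log2 fold change -0.43, SE 0.0442, edgeR adjusted p = 5.75e-07). Both genes were lower in every library labelled FTO. Mt-co1, the subunit that reduces oxygen, held the most counts of any member, at 19476, 18069 and 18737 CPM in Vector and 18194, 19005 and 16384 CPM in the libraries labelled FTO. The groups overlapped and the difference did not pass (log2 fold change -0.07, SE 0.0509, edgeR adjusted p = 0.233, 95% interval -0.18 to 0.04). Without FTO replicate 2 it passed as lower (log2 fold change -0.12, edgeR adjusted p = 0.0112). With Mt-co1 left out, the remaining 12 mitochondrial members summed to 27.0% less in the libraries labelled FTO.

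Complex V takes its proton channel subunit Mt-atp6 and the small Mt-atp8 from mitochondrial DNA. Mt-atp6 was at 3189, 3152 and 3354 CPM in Vector and at 2467, 2596 and 2331 CPM in the libraries labelled FTO, without overlap (log2 fold change -0.39, SE 0.0447, edgeR adjusted p = 1.70e-06). Mt-atp8 scattered widely between replicates, at 17.3, 30.6 and 43.0 CPM and 32.3, 29.2 and 41.9 CPM, and no direction can be given (log2 fold change 0.19, SE 0.215, edgeR adjusted p = 0.449). It was higher without Vector replicate 3 (log2 fold change 0.52, edgeR adjusted p = 0.0332) and had the opposite sign without Vector replicate 1 (-0.09). The reading frames of Mt-atp8 and Mt-atp6 overlap on mitochondrial DNA, as do those of Mt-nd4l and Mt-nd4, and reads in the shared stretch can be assigned to either. Nuclear copies of mitochondrial sequence add the same uncertainty to all 13 genes. In map order, Mt-nd4, Mt-nd5, Mt-nd6 and Mt-cyb, which are 4 of the 5 genes with the largest decreases, stand next to each other, while Mt-nd2 and Mt-co1 are neighbours apart from transfer RNA genes. These positions are background, since no mitochondrial coordinates were used here.

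**Figure D2:**
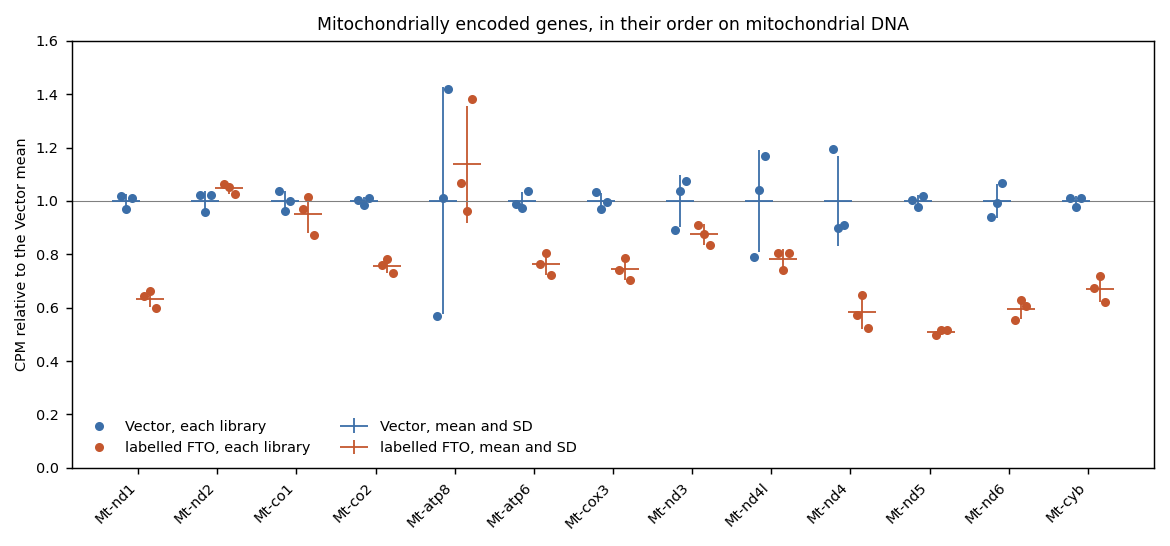
CPM of each of the 13 mitochondrially encoded genes (x axis, in map order) as a ratio to the gene's Vector mean (y axis), with 1 point per library and the mean ± SD of 3 libraries. Mt-nd5, Mt-nd6, Mt-nd4, Mt-nd1 and Mt-cyb lie well below the Vector mean in all 3 libraries labelled FTO, Mt-nd2 and Mt-co1 lie near it, and Mt-atp8 scatters in both groups.

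Most nuclear members were higher in each complex. Among the 34 nuclear genes of complex I, 25 were higher, 1 was lower and 8 did not pass (median log2 fold change 0.30). The 7 core subunits of the matrix arm hold the flavin and the iron-sulphur clusters. Of these, 6 were higher, and Ndufs8 did not pass (log2 fold change 0.07). Ndufv1, which binds NADH, was at 86.5 ± 1.17 CPM in Vector and 109 ± 3.25 CPM in the libraries labelled FTO (SD, n = 3, log2 fold change 0.33). Of the 26 accessory subunits tested, 19 were higher, 1 was lower and 6 did not pass.

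The largest nuclear increases in complex I were in accessory subunits. Ndufa12 was at 4.10, 3.76 and 4.02 CPM in Vector and at 5.89, 6.42 and 8.15 CPM in the libraries labelled FTO (log2 fold change 0.80, SE 0.164, edgeR adjusted p = 5.50e-04). Ndufb3 was at 21.6, 19.2 and 20.2 CPM and 35.8, 37.9 and 31.6 CPM (log2 fold change 0.78, SE 0.0851, edgeR adjusted p = 9.60e-07). Ndufb4 was at 34.7, 31.9 and 34.1 CPM and 58.3, 57.9 and 52.9 CPM (log2 fold change 0.75, SE 0.0653, edgeR adjusted p = 7.95e-08). All 3 genes were higher in each library labelled FTO than in any Vector library. Ndufv3, an accessory subunit of the NADH-binding tip, was the exception, at 56.3, 51.2 and 52.2 CPM and 47.3, 46.1 and 43.6 CPM. It fell without overlap (log2 fold change -0.22, SE 0.062, edgeR adjusted p = 0.00546). Ndufa10l1, a copy of the accessory subunit gene Ndufa10, did not pass (log2 fold change -0.10, SE 0.0811, edgeR adjusted p = 0.3). Ndufb8 and Ndufb10 did not pass (log2 fold change 0.01 each, 95% intervals -0.09 to 0.11 and -0.14 to 0.17).

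The 4 subunits of complex II, also an enzyme of the citric acid cycle, rose together by a small amount. Sdha, the flavoprotein that oxidises succinate, was at 162, 151 and 153 CPM in Vector and 173, 179.6 and 172 CPM in the libraries labelled FTO (log2 fold change 0.17, SE 0.0445, edgeR adjusted p = 0.0033). Sdhb, the iron-sulphur subunit, was at 63.9, 71.0 and 67.7 CPM and 75.5, 78.3 and 75.6 CPM (log2 fold change 0.18, SE 0.0547, edgeR adjusted p = 0.00984). Sdhb lost its call without Vector replicate 1 (edgeR adjusted p = 0.0656). The membrane anchors were also higher, Sdhc at 105, 108 and 103 CPM against 112, 127 and 117 CPM (log2 fold change 0.18) and Sdhd at 78.6, 80.8 and 82.8 CPM against 96.4, 92.6 and 88.9 CPM (log2 fold change 0.20). For all 4 genes the groups did not overlap.

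In complex III 6 of 8 nuclear members were higher and none was lower (median log2 fold change 0.29). Uqcr10, a small subunit beside cytochrome c1, was at 50.5, 55.1 and 51.1 CPM in Vector and 74.7, 74.8 and 73.4 CPM in the libraries labelled FTO (log2 fold change 0.51, SE 0.0551, edgeR adjusted p = 9.64e-07). Uqcrfs1, the Rieske iron-sulphur protein, was at 113, 127 and 127 CPM and 161, 165 and 151 CPM (log2 fold change 0.38, SE 0.0545, edgeR adjusted p = 2.09e-05). Uqcrc1, a core protein on the matrix side, was at 143, 137 and 137 CPM and 178, 187 and 160.4 CPM (log2 fold change 0.33, SE 0.0546, edgeR adjusted p = 7.38e-05). In each case the groups were separate. Its partner Uqcrc2 and the small subunit Uqcrb did not pass (log2 fold change 0.05 and -0.02). The fall of Mt-cyb stood beside these increases within the same complex.

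In complex V the share of genes called differed between structural parts. All 6 stalk and membrane genes tested were higher, as were 2 of the 3 genes for the membrane ring, but only 1 of the 5 genes for the catalytic head. In the head, Atp5a1 and Atp5b, the alpha and beta chains, were at 549 ± 12.5 CPM and 965 ± 22.3 CPM in Vector and at 553 ± 28.1 CPM and 996 ± 41.7 CPM in the libraries labelled FTO. Neither passed (log2 fold change 0.01, 95% interval -0.09 to 0.10, and 0.05, 95% interval -0.04 to 0.13). Atp5c1 and Atp5d did not pass either, and Atp5e, the small epsilon chain, rose (log2 fold change 0.18, SE 0.0739, edgeR adjusted p = 0.0426). The stalk and membrane genes Atp5h and Atp5j2 passed with log2 fold changes of 0.13 and 0.14, near the 0.11 of Atp5d. Whether the head differed from the stalk was not tested.

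Atp5i and Atp5l encode the small membrane subunits e and g, which take part in dimers of the enzyme. Atp5i was at 16.5, 23.9 and 23.8 CPM in Vector and 33.2, 30.5 and 29.9 CPM in the libraries labelled FTO (log2 fold change 0.54, SE 0.113, edgeR adjusted p = 6.51e-04). Atp5l was at 113, 120.3 and 125 CPM and 178, 175 and 166 CPM (log2 fold change 0.53, SE 0.0485, edgeR adjusted p = 1.28e-07). Both were higher without overlap. The genes Atp5g1, Atp5g2 and Atp5g3 encode the same mature ring protein. Atp5g1 was at 63.0, 68.9 and 62.8 CPM and 92.7, 96.8 and 82.1 CPM (log2 fold change 0.48, SE 0.0656, edgeR adjusted p = 1.25e-05), and Atp5g3 was at 144, 151 and 155 CPM and 209, 224 and 195 CPM (log2 fold change 0.48, SE 0.0531, edgeR adjusted p = 1.23e-06). Atp5g2 overlapped, at 166, 166 and 151 CPM and 149, 160.1 and 136 CPM, and did not pass (log2 fold change -0.12, SE 0.0587, edgeR adjusted p = 0.0937). It passed as lower with the replicate number as a block (edgeR adjusted p = 0.0462), without Vector replicate 3 (0.0463) and without FTO replicate 2 (0.00694).

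Another pair of matching symbols are not subunits. Atp5sl and Atp5s are listed by RefSeq as Dmac2 and Dmac2l. Atp5sl was at 23.6, 24.3 and 25.9 CPM and 35.0, 37.8 and 31.4 CPM (log2 fold change 0.49, SE 0.0814, edgeR adjusted p = 7.64e-05). Atp5s was at 7.83, 6.64 and 6.58 CPM and 5.68, 4.91 and 5.08 CPM and fell (log2 fold change -0.42, SE 0.142, edgeR adjusted p = 0.0166), a call lost with DESeq2 (adjusted p = 0.0533) and without Vector replicate 1 (edgeR adjusted p = 0.0779). Without these genes and without the 7 paralogs tested, 52 of 70 nuclear members were higher, 1 was lower and 17 did not pass.

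**Figure D3:**
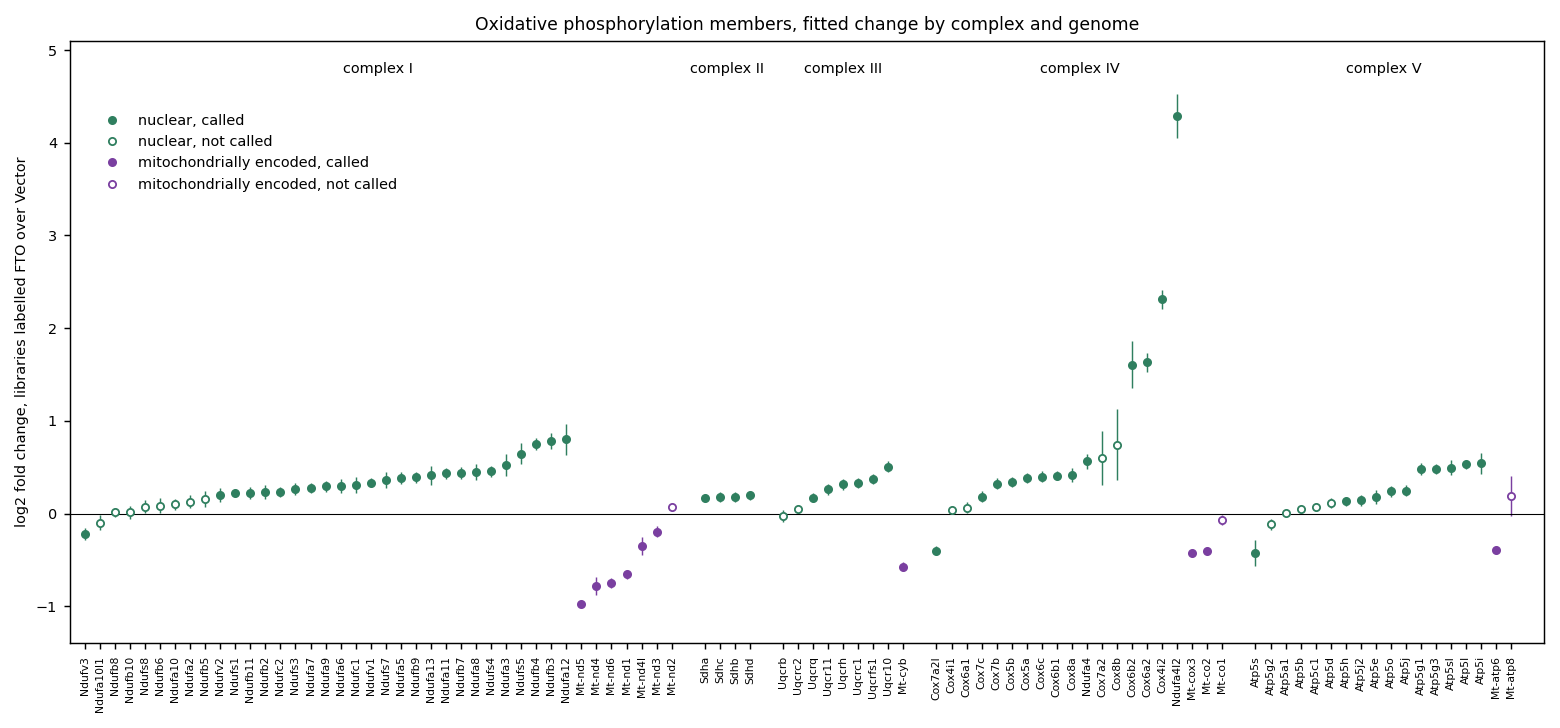
Fitted log2 fold change, with FTO-labelled libraries set over Vector libraries (y axis), for the members (x axis, 1 of the 92 left out, grouped by complex and ordered by change within each genome), with bars of 1 SE, filled points for an edgeR adjusted p under 0.05 and open points for the others. Nuclear genes mostly lie between 0 and 1 with 4 paralogs of complex IV above 1, and 10 of 13 mitochondrial genes lie below 0 as filled points.

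Complex IV held the largest increases. Of its 17 nuclear members 12 were higher, 1 was lower and 4 did not pass (median log2 fold change 0.41). The 4 members past a log2 fold change of 1 were all paralogs of a subunit. Ndufa4l2 is a hypoxia-inducible paralog of Ndufa4, a complex IV subunit despite its name. It was at 0.878, 0.537 and 0.277 CPM in Vector and 11.4, 9.82 and 11.8 CPM in the libraries labelled FTO (log2 fold change 4.29, SE 0.24, edgeR adjusted p = 3.52e-10). The Vector levels rest on 12, 8 and 4 counts, so the fold is less precise than its direction. The gene passed the filter only through the libraries labelled FTO, where it is high. A floor of 3 counts per library is 0.168 to 0.227 CPM. Such floors cover counting error only. Ndufa4 itself was at 29.8, 36.0 and 32.7 CPM and 45.7, 52.0 and 47.97 CPM (log2 fold change 0.56, SE 0.0767, edgeR adjusted p = 1.13e-05). Both genes were higher in every library labelled FTO.

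Cox4i2, known as the lung isoform of subunit 4 and as induced by low oxygen, was at 6.73, 6.91 and 5.47 CPM in Vector and 29.9, 32.3 and 32.8 CPM in the libraries labelled FTO (log2 fold change 2.31, SE 0.102, edgeR adjusted p = 1.99e-11). Its common partner isoform Cox4i1 was at 294, 296 and 293 CPM and 295, 324 and 289 CPM and did not pass (log2 fold change 0.04, SE 0.0464, edgeR adjusted p = 0.463). The share of Cox4i2 in the counts of both genes was 2.12% ± 0.246 and 9.48% ± 0.607 (SD, n = 3). Cox6a2, the heart and skeletal muscle isoform of subunit 6a, was at 10.1, 13.8 and 13.0 CPM and 39.8, 40.4 and 35.0 CPM (log2 fold change 1.63, SE 0.105, edgeR adjusted p = 1.91e-09). The liver-type Cox6a1, expressed in most tissues, was at 163, 158 and 168 CPM and 169, 188 and 156 CPM, with overlap (log2 fold change 0.07, SE 0.0589, edgeR adjusted p = 0.342). It passed without FTO replicate 3 (log2 fold change 0.12, edgeR adjusted p = 0.0305) and changed sign without FTO replicate 2. Cox6a2 made up 7.03% ± 1.11 of the counts of the pair in Vector and 18.4% ± 0.690 in the libraries labelled FTO. The 11 higher cardiomyocyte markers moved in the same direction in the same libraries, and their part in this was not tested.

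Cox6b2, the testis isoform of subunit 6b, was low throughout, at 1.39, 0.939 and 0.831 CPM in Vector and 3.37, 2.72 and 3.46 CPM in the libraries labelled FTO (log2 fold change 1.61, SE 0.256, edgeR adjusted p = 5.55e-05). The common isoform Cox6b1 was at 97.2, 99.0 and 95.9 CPM and 128, 134 and 125 CPM (log2 fold change 0.41, SE 0.0469, edgeR adjusted p = 1.77e-06). Both rose, and the share of Cox6b2 was 1.07% ± 0.298 and 2.41% ± 0.374. For Ndufa4l2 the share was 1.72% ± 1.04 and 18.6% ± 2.31. Within the 3 ring genes Atp5g2 went from 42.8% ± 1.79 to 33.1% ± 0.157, Atp5g3 from 40.0% ± 1.85 to 46.7% ± 0.395 and Atp5g1 from 17.3% ± 0.545 to 20.2% ± 0.334. These are shares of counts, not corrected for transcript length. The groups did not overlap in 7 of the 9 shares compared, while 70.3% of all genes did not overlap in CPM. Each of the 7 had an exact two-sided permutation p of 0.1, the smallest that 3 against 3 libraries allow (0.129 after Benjamini-Hochberg adjustment over 9). The 3 ring shares add up to the whole in each library, so they are not separate results. The share of Cox8b in the counts of Cox8a and Cox8b was 0.987% ± 0.501 and 1.28% ± 0.257 (exact permutation p = 0.4, adjusted 0.45).

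**Figure D4:**
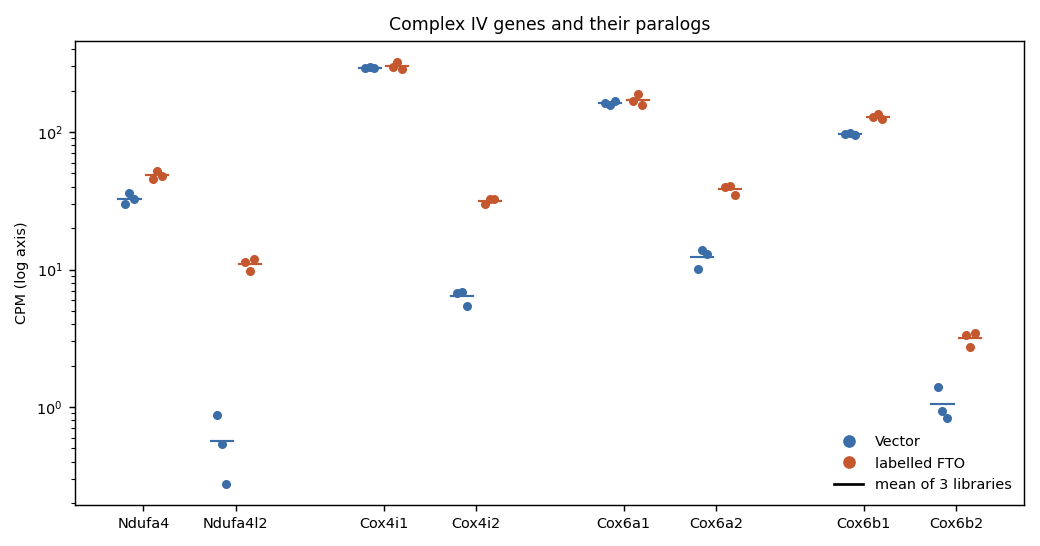
CPM on a log axis (y axis) of 4 complex IV genes and their paralogs (x axis), with 1 point per library and a bar at the mean of 3 libraries. Ndufa4l2, Cox4i2, Cox6a2 and Cox6b2 are separated between the groups, while Cox4i1 and Cox6a1 overlap. Levels are compared within a gene only, since no transcript lengths were used.

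The remaining complex IV genes moved like the other nuclear members. Cox5a, Cox5b, Cox6c, Cox7b, Cox7c and Cox8a were higher by 0.18 to 0.41 on the log2 scale. Cox7a2l, a relative of subunit 7a that takes part in joining complexes III and IV, was the only lower one, at 207, 205 and 208 CPM in Vector and 158, 166 and 146 CPM in the libraries labelled FTO (log2 fold change -0.40, SE 0.049, edgeR adjusted p = 3.70e-06). Cox7a2 and the muscle isoform Cox8b had few counts and did not pass. Cox7a2 was at 0.951, 1.41 and 2.22 CPM and 2.31, 2.79 and 1.95 CPM (log2 fold change 0.60, SE 0.293, edgeR adjusted p = 0.0849), and passed as higher without Vector replicate 3 (log2 fold change 0.96, edgeR adjusted p = 0.0189). Cox8b was the member just inside the filter, at 0.293, 0.805 and 1.04 CPM and 1.05, 1.21 and 1.34 CPM (log2 fold change 0.74, SE 0.381, edgeR adjusted p = 0.0999).

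A further 7 symbols did not pass the filter. Atp5f1, the peripheral stalk subunit b, lay just outside it, at 0.219 to 0.671 CPM in Vector and 0.453 to 0.503 CPM in the libraries labelled FTO. Ndufa1, which complex I is known to need, had 1, 0 and 1 counts in Vector and 0, 0 and 3 in the libraries labelled FTO. The muscle isoform Cox7a1 had 1 count in all. Ndufb4l1, Cox7b2, Cox8c and Cox6c-ps1 had no count in any library. Where a gene has processed copies elsewhere in the genome, as many of these small subunits do, counts may be divided among them in a way these values do not show.

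The promoters of nuclear members were read from RefSeq on rat build GRCr8, 250 bases before and 50 after the annotated start, and 68 of the 79 matched by symbol. The transcription factors NRF1 and GABP are textbook activators of respiratory genes. The NRF1 letters GCGCANGCG were found, on either strand, in 17 of 68 promoters (25%), against 5.80% of all 33469 promoters of the same length. The GABP letters CCGGAAG were found in 19 (27.9%), against 8.75%. The hypoxia response letters ACGTG or GCGTG were found in 39 (57.4%), against 41.6%. The median log2 fold change of members with and without the letters was 0.33 and 0.27 for NRF1, 0.25 and 0.29 for GABP and 0.28 and 0.29 for the hypoxia response letters. The set of all promoters was not limited to genes tested in these cells and was not matched to the members in base composition, so the shares compare unlike sets. A match describes the letters in the window only.

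The promoters of 4 genes are printed here, each the 250 bases before the start and written 5′ to 3′ along the gene. NRF1, GABP and MEF2 letters are in capitals. Ndufa12 had the largest increase among the nuclear complex I genes and Atp5i the largest in complex V. They were picked as the called members with the largest increase among those holding NRF1 letters and GABP letters in these bases. Their matches were thus fixed by the choice and say nothing about large increases in general. Ndufa12 (chr7:30658066-30658315, plus strand) holds the NRF1 letters, here read on the opposite strand, and the hypoxia letters GCGTG lie inside that match. Atp5i (chr14:1464610-1464859, plus strand) holds the NRF1 letters on both strands, overlapping each other, and the GABP letters on the opposite strand. The letters ACGTG also lie on its opposite strand, left in lower case. Cox6a2 (chr1:192219717-192219966, minus strand) holds the letters TAAAAATA of the muscle factor MEF2, a motif added after this sequence had been seen. It was the only 1 of the 68 promoters with them (1.47%), against 2.69% of all promoters. Ndufa4l2 (chr7:65241919-65242168, plus strand) holds none of these motifs, so no letters are in capitals, although it had the largest increase of all members.
Ndufa12: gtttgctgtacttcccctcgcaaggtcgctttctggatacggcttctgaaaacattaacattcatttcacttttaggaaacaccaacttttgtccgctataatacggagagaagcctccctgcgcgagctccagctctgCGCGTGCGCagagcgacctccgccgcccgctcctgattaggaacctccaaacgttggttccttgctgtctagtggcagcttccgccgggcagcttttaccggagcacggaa
Atp5i: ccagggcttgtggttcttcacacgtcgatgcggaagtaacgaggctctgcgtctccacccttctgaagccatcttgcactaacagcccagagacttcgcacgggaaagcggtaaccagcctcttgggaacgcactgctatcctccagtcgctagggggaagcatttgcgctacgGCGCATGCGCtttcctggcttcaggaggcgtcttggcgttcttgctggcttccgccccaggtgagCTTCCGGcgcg
Cox6a2: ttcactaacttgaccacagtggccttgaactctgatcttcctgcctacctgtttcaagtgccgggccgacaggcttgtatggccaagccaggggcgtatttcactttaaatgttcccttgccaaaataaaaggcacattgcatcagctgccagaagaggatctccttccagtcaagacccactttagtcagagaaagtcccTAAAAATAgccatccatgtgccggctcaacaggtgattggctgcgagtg
Ndufa4l2: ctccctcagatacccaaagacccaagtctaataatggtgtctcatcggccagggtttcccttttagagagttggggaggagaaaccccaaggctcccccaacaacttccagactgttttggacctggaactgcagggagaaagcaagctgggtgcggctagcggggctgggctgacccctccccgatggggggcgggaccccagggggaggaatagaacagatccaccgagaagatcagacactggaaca

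Genes that build or serve the complexes were then counted, and each count stands against the 33.2% of all genes called higher and the 32.8% called lower. For complex I 7 of 15 were higher and none was lower, led by Acad9 (28.2 to 41.5 CPM, log2 fold change 0.56). Ndufaf6 was also higher (log2 fold change 0.44), a call lost without Vector replicate 3 (edgeR adjusted p = 0.056). None of the 3 complex II factors tested passed. For complex III, cytochrome c1 included, 4 of 7 were higher, with Uqcc2 (0.60) and Uqcc1 (0.37) ahead, and none was lower. For complex IV 8 of 20 were higher and 2 lower. Coa7 (0.84) and Pet100 (0.78) rose most, Coa5 fell (-0.40), and Lrpprc, which stabilises mitochondrial mRNA, fell slightly (-0.13) with a call that was lost under several alternatives, DESeq2 among them (adjusted p = 0.0616). For complex V 3 of 5 were higher and 1 lower. The inhibitor Atpif1 went from 90.8 to 134 CPM (log2 fold change 0.56) and Tmem242 from 22.3 to 38.0 CPM (0.77), while the factor Atpaf1, which assembles the head, fell from 33.3 to 23.3 CPM (-0.52).

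Of the genes that copy and transcribe mitochondrial DNA 4 of 15 were higher and 4 lower, each share somewhat below that of all genes. Polrmt, the mitochondrial RNA polymerase, fell from 14.3 to 7.88 CPM (log2 fold change -0.86, SE 0.117, edgeR adjusted p = 1.19e-05), and Polg, the DNA polymerase, fell from 49.9 to 34.7 CPM (log2 fold change -0.52, SE 0.064, edgeR adjusted p = 3.72e-06). Ssbp1, which binds single-stranded mitochondrial DNA, rose from 15.6 to 24.8 CPM (log2 fold change 0.67), and Mterf4 rose from 8.24 to 11.6 CPM (0.49). Of the genes for mitochondrial RNA processing and decay 7 of 18 were higher and 4 lower, so the share called was near the 65.9% of all genes. The 7 include Ppif (1.63), which encodes cyclophilin D and is not a gene of RNA processing or decay, although the list holds it. Ppif and Pnpt1, the mitochondrial polynucleotide phosphorylase (0.71), rose most, and Rexo2, an oligoribonuclease (-0.64), and Fastk (-0.25) fell most. Without Vector replicate 2 or 3 the called genes of this list numbered 7 in place of 11. Among 12 regulators of mitochondrial biogenesis 1 was higher and 3 lower. Esrrg rose (1.01), Pprc1 (-0.53) and Rxra (-0.50) fell, and 7 genes of the list were called without FTO replicate 3. Of 13 genes used as markers of mitochondrial mass 7 were higher and 2 lower. Phb2 was among the higher ones (0.42). The voltage-dependent anion channel genes ran both ways, Vdac3 from 197 to 341 CPM (0.79) and Vdac2 from 257 to 210.3 CPM (-0.29), and citrate synthase, Cs, fell from 178 to 146 CPM (-0.28).

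The list of hypoxia-linked genes that alter respiration holds Ndufa4l2 and Cox4i2, already reported above, and 6 other genes. All 8 passed, 7 as higher and 1 as lower, while 65.9% of all genes passed. The list was chosen with earlier results of these data known, so neither its count nor its sum is separate from the results above. Bnip3, a mitophagy receptor on the outer membrane, rose from 30.7 to 102 CPM (log2 fold change 1.73, SE 0.0615, edgeR adjusted p = 1.32e-12). Lonp1, the matrix protease that degrades Cox4i1 in low oxygen, was the only lower one, from 159 to 134 CPM (log2 fold change -0.24, SE 0.0448, edgeR adjusted p = 2.21e-04). The summed level of the list, Ndufa4l2 and Cox4i2 included, was 330.3 to 334 CPM in Vector and 563 to 600.2 CPM in the libraries labelled FTO.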

How the data were processed

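RNA-seq was performed on 3 Vector and 3 FTO-labelled samples of NRCFs, grouped by genotype label. The authors deposited unnormalized read counts for each gene symbol, with 1 file for each library. The labels give total RNA and a NEBNext Ultra kit, and the submitters' processing notes name Trimmomatic and build rn6. Which aligner, counter, annotation and strand setting were used is not given in the sources used here. Nor is it stated whether poly(A) RNA was selected or ribosomal RNA removed, which can alter how mitochondrial transcripts are counted relative to nuclear ones.

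Genes were kept by the expression filter of edgeR (filterByExpr, minimum count 10), which all members kept also passed. They were scaled by TMM and compared by the two-sided quasi-likelihood test of edgeR 4.0.16 (R 4.3.3), with p-values adjusted over all 12941 genes. Values are TMM-scaled CPM. SE and 95% intervals came from the fold change and the test statistic. The procedure was tested on simulated counts in which few genes changed, all of them well counted, unlike these data. Members and lists were chosen with earlier results of these data known.

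Named genes were all mitochondrial and Sdh members, the 3 largest called nuclear increases and decreases of complexes I, III, IV and V, members with a log2 fold change of at least 1 in size, paralog pairs, the member with most counts in each complex, and the 2 largest called increases and decreases of each companion list. Any other gene was named with its values known, and 1 member is not reported here by name. The alternatives comprised DESeq2 1.42.0, limma-voom, DESeq2 size factors, library size alone, scaling without the mitochondrial genes, no filter, a mean of at least 10 counts, a replicate block, glmTreat at 1.2-fold and leaving out each library. The authors' threshold, a log2 fold change of 1 with p under 0.05, was applied in either direction. Same-numbered libraries did not deviate together (correlations 0.00284, -0.0693 and 0.0207).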

Additional observations from a re-analysis of the deposited data

How the results depend on the processing

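Of 2048 values recomputed over the alternatives, 2008 kept their direction, their side of the threshold and, for counts, a size within 1.5 times. The members called ranged from 65 to 75 when 1 library was left out. Against a 1.2-fold change (glmTreat) 37 members were called, 28 of them higher, because that test asks for a larger change. With the replicate number as a block 71 members were called in place of 70, and the block changed the call of 1 named member, Atp5g2, and of Slc25a3. The numbers are not known to pair the libraries. Under the alternatives other than glmTreat, which was not counted by genome, the nuclear members called higher ranged from 52 to 61 and the mitochondrial members called lower from 9 to 11. Complex V members called lower were 1 with DESeq2 and 1 to 3 when 1 library was left out, against 2. Mitochondrial members called higher were 0 to 1 when 1 library was left out. With 1 library left out, signs turned for Mt-atp8 (-0.0867 to 0.523), Cox4i1 (-0.00890 to 0.0688) and Cox6a1 (-0.00524 to 0.125), none of which passed the main test. The cause of these shifts was not tested. Of 103 single genes followed, 14 changed a call or a sign, 11 of them members. Depth limits the low paralogs Ndufa4l2, Cox6b2 and Cox8b. Cox7a2, a subunit gene and not counted as a paralog, also had few counts, and the reason was not tested. With 3 libraries a group, exact permutation tests of single values cannot go below 0.1.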

Other observations

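Genes for fuels and carriers around the chain were counted beside all genes, of which 33.2% were called higher and 32.8% lower. Of 17 citric acid cycle enzymes 7 rose and 4 fell under the FTO label (median log2 fold change -0.01), a called share near the 65.9% of all genes. Dld, a subunit shared by the dehydrogenase complexes of the matrix, went from 214 to 282 CPM (0.40), Sucla2 from 82.6 to 101 CPM (0.28) and Idh2, the NADP-dependent isocitrate dehydrogenase, from 148 to 111 CPM (-0.41). Among 19 genes for electron carriers and coenzyme Q synthesis 8 were higher and 1 lower. Dhodh, the pyrimidine enzyme that passes electrons to ubiquinone, rose from 8.52 to 28.4 CPM (log2 fold change 1.73, SE 0.0897, edgeR adjusted p = 1.38e-10), and Coq8a, needed for coenzyme Q synthesis, from 5.16 to 12.8 CPM (log2 fold change 1.31, SE 0.138, edgeR adjusted p = 6.83e-07). Gpd2, the glycerol phosphate shuttle enzyme, was the lower one (-0.34). Of 5 genes tested in the list of uncoupling proteins and nucleotide translocases 2 were higher and 2 lower. Ckmt1, which encodes a mitochondrial creatine kinase, rose most (log2 fold change 4.26). Neither Ckmt1 nor Slc25a3, the other higher gene, is an uncoupling protein or a nucleotide translocase. Slc25a4, the heart-type ATP/ADP translocase, fell from 513 to 394 CPM (-0.38), Ucp2 fell from 152 to 106 CPM (-0.52), and the phosphate carrier Slc25a3 had a log2 fold change of 0.10 whose call was lost under several alternatives, DESeq2 among them (adjusted p = 0.0712).

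Genes that tie inflammation to respiration numbered 4 tested, of which 2 were higher and 1 lower. Acod1, which makes itaconate, an inhibitor of complex II, went from 0.652 ± 0.0447 CPM in Vector to 22.7 ± 1.12 CPM in the libraries labelled FTO (SD, n = 3, log2 fold change 5.103, SE 0.159, edgeR adjusted p = 2.57e-13). Sod2, the superoxide dismutase of the matrix, went from 99.0 ± 6.57 CPM to 2860.5 ± 79.9 CPM (log2 fold change 4.85, SE 0.0544, edgeR adjusted p = 2.32e-18). Acod1 is best known from macrophages. In the same libraries 10 of 11 macrophage markers were lower, and Adgre1 was higher, from 6.81 to 31.7 CPM (2.22). Genes of fusion, fission and mitophagy were 5 higher and 2 lower of 11 tested. Mief2 (0.59) rose beside Bnip3, while the fission enzyme Dnm1l (-0.34) and the fusion enzyme Opa1 (-0.24) fell.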
